A study of Bos taurus with 19 samples.

Results

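The genes described here encode the enzymes that cut the extracellular matrix of the follicle wall, the activators and receptor of the plasminogen system, and the inhibitors that hold the metalloproteinases in check: MMP2, MMP14, TIMP1, TIMP2, TIMP3, PLAU, PLAT, PLAUR and ADAMTS1. They were chosen as the probe sets for which the annotation of the array gives 1 of these 9 symbols and no other symbol. This gave 15 probe sets of 24127 on the array, and 9 genes of the 9156 that have a probe set with a single symbol. The rule picks probe sets by name and by no measured value, although the genes were proposed with earlier results of these data known.

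The matrix metalloproteinases are secreted or membrane-bound zinc enzymes made as inactive proenzymes, and the tissue inhibitors of metalloproteinases (TIMPs) bind their active sites. The plasminogen activators PLAU and PLAT turn plasminogen into plasmin, a serine protease that digests fibrin and matrix proteins, and PLAUR holds PLAU at the cell surface. In the ovary these enzymes and inhibitors are known for the remodelling of the theca and its basal lamina as follicles grow, regress or rupture, and ADAMTS1 is known for cutting the proteoglycan versican around ovulation.

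RNA of the bovine theca interna, the vascular and steroid-producing layer outside the follicular basal lamina, was measured on 19 Affymetrix bovine arrays, 1 follicle per array. The follicles came from non-pregnant Bos taurus heifers at slaughter, were sorted by histology of a piece of the wall, and had their granulosa cells scraped out before the theca was dissected. The groups were 5 small atretic follicles, 4 large healthy follicles of over 9 mm, and 10 small healthy follicles, of which 5 had rounded and 5 had columnar basal granulosa cells. All small follicles were 3 to 5 mm in diameter. The sample records do not tie follicles to animals, and the p-values therefore measure the spread among these follicles alone.

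The groups also differed in how the RNA was made. According to the sample records, RNA of small atretic follicles was prepared with RNAqueous Micro columns and 0.25 µg was labelled. Large follicles were extracted with Trizol followed by RNeasy columns and small healthy follicles with RNeasy mini columns, and 2 to 5 µg was labelled for both. For healthy follicles the study's methods give 1 extraction and 1 amount instead. By these records, atresia cannot be told apart from the kit and the RNA amount, nor follicle size from the use of Trizol.

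Array medians were 3.8 to 3.9 on the log2 scale. All 7 markers of thecal steroidogenic cells were above a log2 signal of 3 on every array except atretic replicate 5, with 5 of 7, and columnar replicate 2, with 6. Their summed signal was 1883 in atretic replicate 5 and 5543 to 8945 in the other atretic follicles, against 5800 to 11880 in large and 5516 to 9650 in small healthy follicles. Atretic replicate 5 thus stood apart, and member results that rest on it are also given without it. For related genes this was not done throughout. Of the granulosa markers, FSHR, FOXL2 and IHH, 3 of 11, were never above 3, but 6 to 8 of the 11 were above 3 on each array. INHA read 7.8 to 10.6 in atretic, and INHBA averaged 5.84 in atretic and 8.35 in large follicles. The mean log2 signal of the list was 5.10 ± 0.51 in atretic, 5.85 ± 0.63 in large and 5.58 ± 0.27 in small healthy follicles (SD). The part of granulosa cells in the differences below was not tested. CYP19A1, the aromatase of granulosa cells, was highest in large replicate 2 at 5.8 and next in columnar replicate 1 at 3.9. Member results between large and small follicles are therefore also given without these arrays where they differ. The spiked poly-A controls averaged 4.88 ± 0.327 in small atretic, 6.02 ± 0.288 in large healthy and 4.68 ± 0.245 in small healthy follicles (SD, n = 5, 4 and 10). In whole tissue, fewer cells of a type and less RNA per cell cannot be told apart.

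Of the 15 probe sets, 14 passed the detection filter, which asked for a log2 signal above 3 in 50% or more of the follicles of a type. The probe set left out was 1 of 3 for MMP14, which lay between 1.6 and 2.0 on every array. For MMP14 and PLAUR the signals lay close to 3, and the size of a difference so near the limit is less certain than for the other members. Unless stated otherwise, values are log2 signals, differences are in log2 units, and adjusted p-values come from limma over all tested probe sets. Counts of members below are counts of their probe sets unless genes are named, so 1 gene can enter a count several times.

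**Figure D1:**
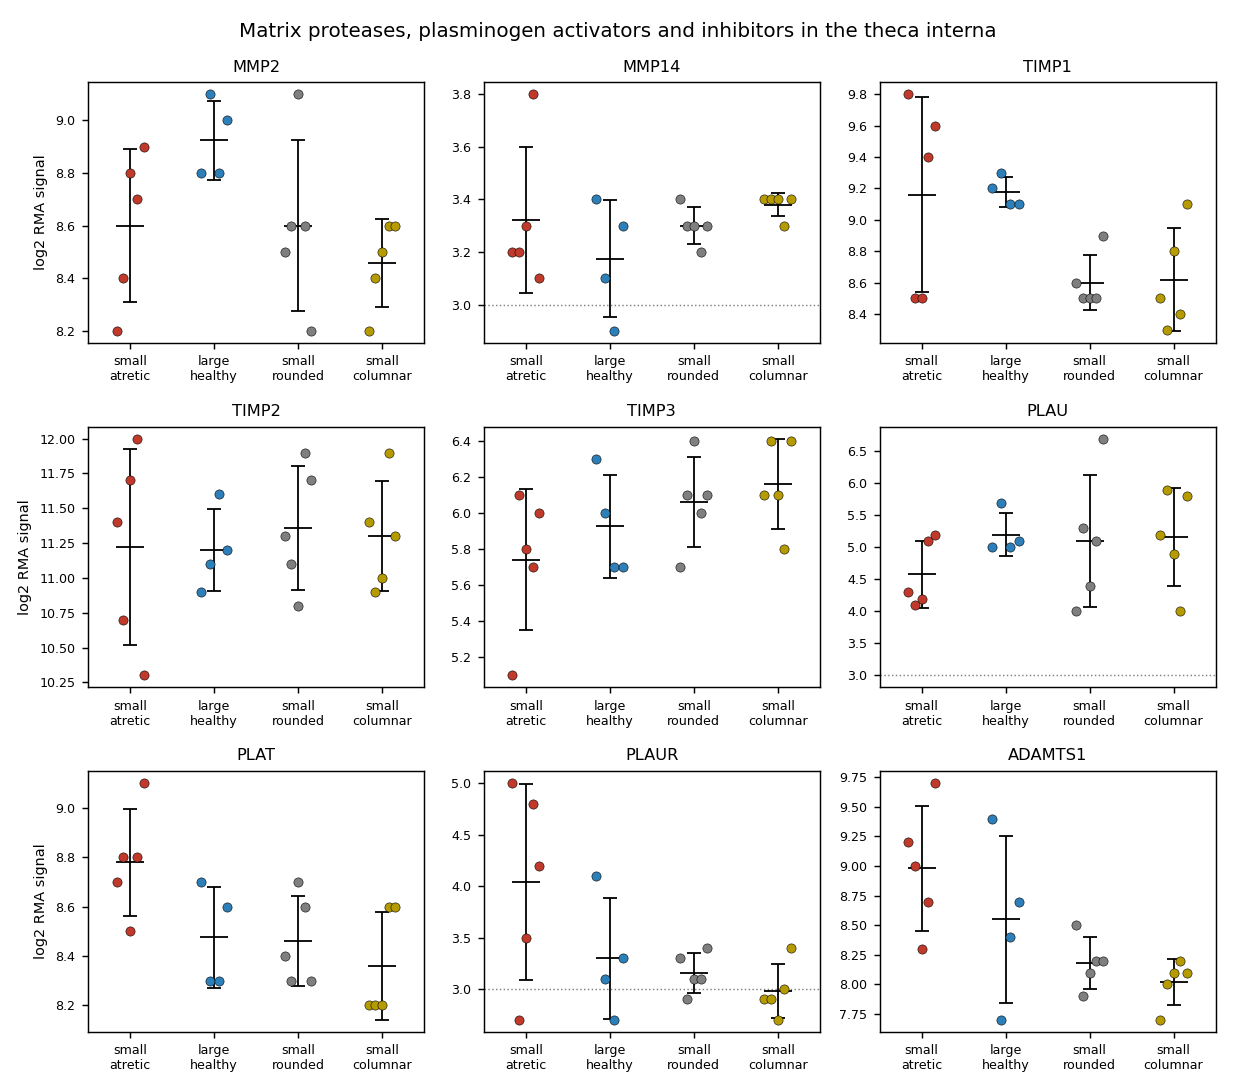
Log2 RMA signal of the brightest probe set of each of the 9 genes (vertical axes, different ranges) in small atretic, large healthy, small rounded and small columnar follicles; points are follicles, horizontal bars are means with SD, and the dotted line marks the detection limit of 3. In the PLAUR and ADAMTS1 panels, 4 of the 5 atretic follicles lie above every small healthy follicle.

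Between small atretic and small healthy follicles, 5 of the 9 genes had a probe set past the adjusted p threshold. ADAMTS1, PLAUR, PLAT and TIMP1 were higher in small atretic follicles and TIMP2 was lower, on 1 of its 3 probe sets. In all, 6 of 14 probe sets passed, 5 higher and 1 lower, or 42.9%, against 31.9% of the 15470 probe sets tested in this comparison (16.9% higher and 15.1% lower). In limma 0 members also reached a 2-fold change, against 3.68% of all probe sets, and an unmoderated linear model gave 0 too. Without atretic replicate 3, 3 member probe sets did, and without atretic replicate 2, rounded replicate 5 or columnar replicate 5, 1 did. Over all probe sets, 569 passed both limits with every follicle and 444 to 706 without single follicles. Without atretic replicate 5, 4 of 14 member probe sets passed the adjusted p, and PLAT and TIMP1 were lost. Over all probe sets the number that passed then fell from 4939 to 2978. At an unadjusted p under 0.05 there were 9 of 14 member probe sets, against 45.2% of all probe sets. The median difference of the members was 0.15, against 0.01 over all probe sets, and their median size without sign was 0.40, against 0.22. The 95% interval of the difference lay within 2-fold for 10 of 14 member probe sets and within 1.5-fold for 4, against 87.8% and 63.8% of all probe sets. Set against the 5 rounded follicles alone, 0 members passed in limma, where only 244 of all probe sets passed. Against the 5 columnar follicles alone 4 members passed, and the share over all probe sets in that fit is not given here.

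ADAMTS1 (NCBI gene 512171) had the lowest adjusted p of the members in this comparison. Its brighter probe set read 9.2, 9.0, 8.3, 8.7 and 9.7 in atretic follicles, against 8.5, 7.9, 8.1, 8.2 and 8.2 in rounded and 7.7, 8.0, 8.1, 8.2 and 8.1 in columnar follicles. Of the atretic follicles, 4 of 5 lay above all 10 small healthy ones, and replicate 3 lay among them. The mean was 8.98 ± 0.53 in atretic and 8.10 ± 0.21 in small healthy follicles (SD, n = 5 and 10), a difference of 0.88 (SE 0.17, limma adjusted p = 0.00335), or 1.84-fold. The dimmer probe set read 5.6, 5.7, 4.6, 5.2 and 6.1 in atretic follicles, against 4.2 to 5.1 in small healthy follicles, with a median of 4.5. Again all atretic follicles but replicate 3 were above every small healthy one, and the difference was 0.92 (SE 0.19, limma adjusted p = 0.00453). The 2 probe sets varied together over the 19 arrays, with r = 0.95.

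PLAUR (NCBI gene 281983), the surface receptor for urokinase, showed the largest difference of the members. It read 5.0, 2.7, 3.5, 4.8 and 4.2 in atretic follicles, against 3.3, 2.9, 3.1, 3.1 and 3.4 in rounded and 2.9, 2.9, 2.7, 3.0 and 3.4 in columnar follicles. Replicate 2 of the atretic follicles was as low as the lowest small healthy follicle, while the other 4 were above all of them. The difference was 0.97 (SE 0.28, 95% interval 0.38 to 1.56, limma adjusted p = 0.0178), or 1.96-fold. Without atretic replicate 1 the adjusted p was 0.0598 and without atretic replicate 4 it was 0.0527, so the call rested on these follicles. The signals of the healthy follicles straddled the detection limit.

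PLAT (NCBI gene 281407), the tissue-type plasminogen activator, moved less but with little spread. Its signal was 8.7, 8.8, 8.5, 8.8 and 9.1 in atretic follicles, against 8.4, 8.3, 8.7, 8.6 and 8.3 in rounded and 8.2, 8.2, 8.2, 8.6 and 8.6 in columnar follicles. The groups overlapped between 8.5 and 8.7, with 3 atretic follicles above all healthy ones. The difference was 0.37 (SE 0.11, limma adjusted p = 0.0207), or 1.29-fold, and without atretic replicate 5 the adjusted p was 0.0729. PLAU (NCBI gene 281408), the urokinase-type activator, went the other way without passing the test. It read 4.3, 4.1, 4.2, 5.1 and 5.2 in atretic follicles, against 4.0, 5.3, 4.4, 5.1 and 6.7 in rounded and 5.2, 5.9, 4.9, 4.0 and 5.8 in columnar follicles. The healthy follicles alone spanned 2.7 log2 units, from 4.0 to 6.7, and the difference of -0.55 had a 95% interval of -1.36 to 0.26 (limma adjusted p = 0.272).

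The inhibitors did not move as 1 group. TIMP1 (NCBI gene 282092), a soluble inhibitor of most metalloproteinases, read 9.8, 8.5, 8.5, 9.4 and 9.6 on its brighter probe set in atretic follicles, against 8.6, 8.5, 8.5, 8.5 and 8.9 in rounded and 8.5, 8.3, 8.8, 8.4 and 9.1 in columnar follicles. The atretic follicles fell into 3 that were above every small healthy follicle and 2, replicates 2 and 3, at the healthy median of 8.5. The difference was 0.55 (SE 0.20, limma adjusted p = 0.0476). The dimmer probe set, which followed it with r = 0.95, differed by 0.43 and missed the threshold (SE 0.19, limma adjusted p = 0.0894), but passed without atretic replicate 2 or 3 (limma adjusted p = 0.028 and 0.0341). Over 25 alternative fits, the brighter probe set passed in 9, with adjusted p between 0.0153 and 0.179. Leaving out atretic replicate 1, 4 or 5 gave 0.154, 0.105 and 0.141, and leaving out a single small healthy follicle gave up to 0.0742.

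TIMP2 (NCBI gene 282093), which inhibits MMP2 and also takes part in its activation by MMP14, has 3 probe sets. The dimmest read 6.9, 7.1, 7.4, 7.4 and 6.8 in atretic follicles, against 7.3, 7.9, 7.4, 7.8 and 7.8 in rounded and 7.3, 7.7, 7.9, 7.8 and 7.7 in columnar follicles. Here 3 atretic follicles were below every small healthy follicle, and the difference was -0.54 (SE 0.13, limma adjusted p = 0.00861). A brighter probe set differed by -0.24 (limma adjusted p = 0.0766, or 0.0467 without rounded replicate 1), and the brightest by -0.11 (limma adjusted p = 0.759). That brightest probe set spanned 10.3 to 12 in atretic and 10.8 to 11.9 in small healthy follicles, and it followed the other probe sets only loosely, with r = 0.55 and 0.43 over 19 arrays. Whether the probe sets read different transcripts of TIMP2 was not tested.

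TIMP3 (NCBI gene 282094), the inhibitor that binds to the matrix, was 5.1, 6.1, 5.8, 5.7 and 6.0 in atretic follicles, against a range of 5.7 to 6.4 and a median of 6.1 in small healthy follicles. Atretic replicate 1 was the lowest of the 19 arrays, and the rest lay inside the healthy range. The difference of -0.37 did not pass (SE 0.15, limma adjusted p = 0.0732), but did without atretic replicate 2 or rounded replicate 1 (limma adjusted p = 0.0467 and 0.0394), and with the replicate number as a block (limma adjusted p = 0.0317).

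Neither matrix metalloproteinase passed. MMP2 (NCBI gene 282872), the gelatinase that cuts basal lamina and denatured collagens, read 8.2, 8.4, 8.8, 8.7 and 8.9 in atretic follicles, against 8.2 to 9.1 with a median of 8.55 in small healthy follicles. The atretic values lay inside the healthy range, with a difference of 0.07 (SE 0.14, limma adjusted p = 0.716). MMP14 (NCBI gene 281915), the membrane-bound collagenase that activates MMP2, differed by -0.02 on its brighter and 0.23 on its dimmer tested probe set (limma adjusted p = 0.884 and 0.151).

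**Figure D2:**
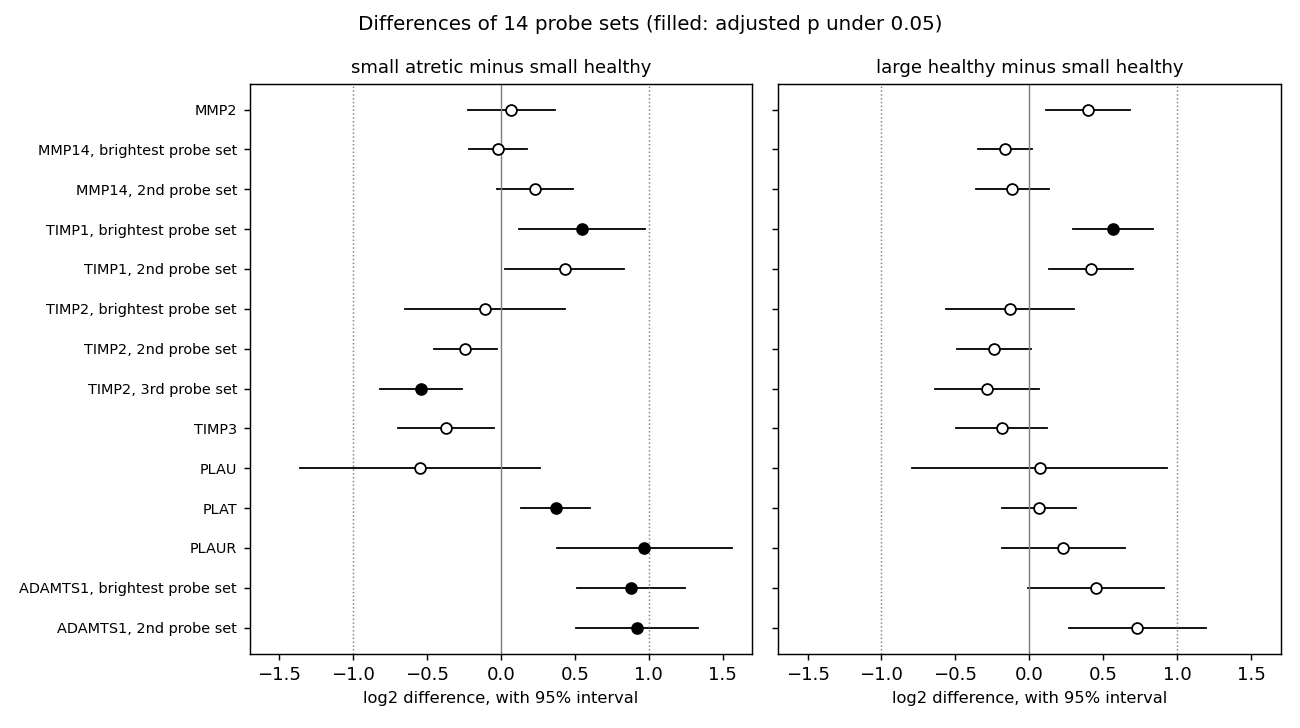
Log2 difference of each of the 14 tested probe sets (points) with its 95% interval (bars) for small atretic minus small healthy and large healthy minus small healthy follicles; dotted lines mark a 2-fold change. Filled points passed the adjusted p threshold: 6 in the atretic comparison and 1, TIMP1, in the large comparison.

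The mean level of macrophage and other leukocyte markers was also higher in small atretic than in small healthy follicles. Over the 12 of 13 listed markers on the array, of which only ITGAM was never above 3, the summed signal was 532.4 to 1519 in small atretic, 424.1 to 743.6 in large healthy and 219.6 to 550.1 in small healthy follicles. Their mean log2 signal was 5.67, 5.04, 4.71, 5.88 and 5.93 in the atretic follicles in order of replicate number. The atretic follicles with lower marker levels, replicates 2 and 3, were also the lowest for PLAUR and shared the lowest TIMP1 value. For ADAMTS1 this held for replicate 3 only, since replicate 2 read 9.0 and 5.7 on the 2 probe sets, above every small healthy follicle. PLAT was lowest in replicate 3, at 8.5, but read 8.8 in both replicates 2 and 4. The dimmest TIMP2 probe set read 7.4 in both replicates 3 and 4, whose marker means were 4.71 and 5.88. In large follicles the marker mean was 5.18, 4.57, 4.38 and 4.78. Replicate 1, the highest, was also the highest for PLAUR and ADAMTS1, while TIMP1 was highest in replicate 2 on both probe sets. The part of leukocytes in these differences was not tested. Endothelial markers, 10 of 11 on the array and KDR never above 3, summed to 728.6 to 1433 in atretic, 760.9 to 1323 in large and 610.9 to 865.1 in small healthy follicles. Fibroblast markers had a mean log2 signal of 9.40 in atretic, 9.40 in large and 9.13 in small healthy follicles. For smooth muscle and pericyte markers it was 6.55, 6.80 and 6.29 in the same order. The order of the follicles was not particular to leukocyte markers. Atretic replicates 2 and 3 were also the lowest atretic follicles for fibroblast markers (9.3 and 9.213) and smooth muscle markers (6.07 and 6.35). They were the highest for granulosa markers (5.4 and 5.755). For endothelial markers replicate 2 was lowest at 5.56, and replicates 3 and 4 both read 5.68. Large replicate 1 was the highest large follicle for endothelial, smooth muscle and fibroblast markers and the lowest for granulosa markers. The part of these cell types was not tested either.

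**Figure D3:**
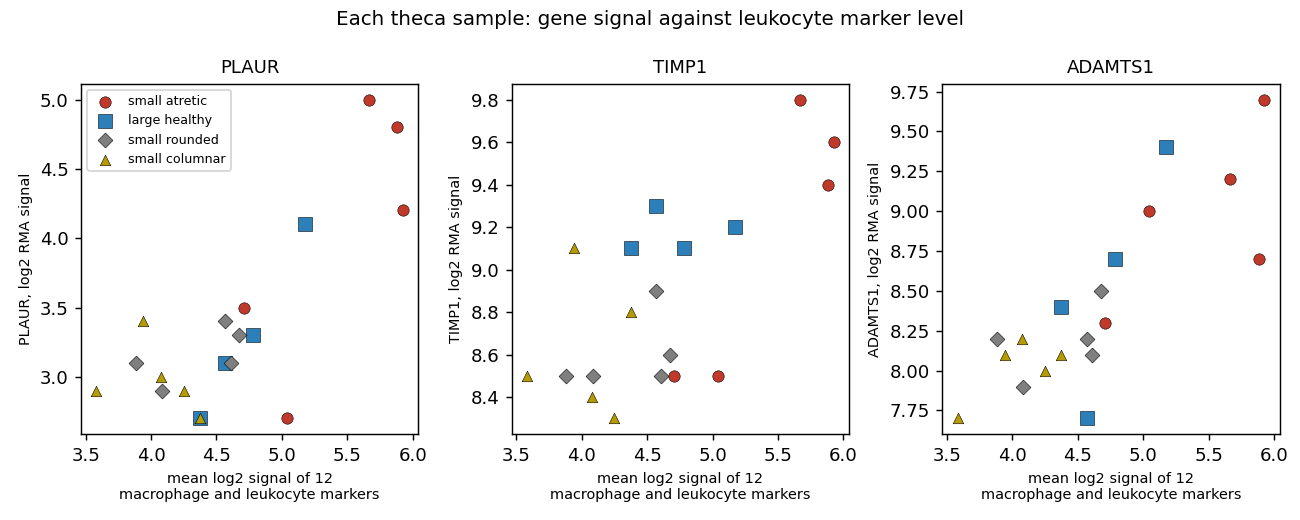
Log2 RMA signal of PLAUR, TIMP1 and ADAMTS1 (vertical axes) against the mean log2 signal of 12 macrophage and leukocyte markers (horizontal axes); each point is 1 follicle and the shapes mark the 4 groups. Atretic replicates 1, 4 and 5, with marker means of 5.67, 5.88 and 5.93, lie at the right of each panel.

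Between large and small healthy follicles, which asks how the theca changes as a healthy follicle grows, TIMP1 alone of the 9 genes passed the test. It was 1 of 14 probe sets, or 7.14%, against 3.58% of the 15570 tested (2.59% higher and 0.983% lower), and 0 members passed together with a 2-fold change in limma or in an unmoderated linear model, against 0.706% of all probe sets. At an unadjusted p under 0.05 there were 4 of 14 member probe sets, against 24.4% of all probe sets. The median difference of the members was 0.07, against -0.005 over all probe sets. These comparisons share the 10 small healthy follicles with the atretic ones, so the values for both are not independent.

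TIMP1 on its brighter probe set read 9.2, 9.3, 9.1 and 9.1 in large follicles, against the range of 8.3 to 9.1 in small healthy follicles given above. The large follicles lay within 0.2 of each other, and only columnar replicate 5 of the small follicles reached their lowest value. The difference was 0.57 (SE 0.13, limma adjusted p = 0.0287), or 1.48-fold. The dimmer probe set read 9.1, 9.3, 8.9 and 8.9 in large follicles, with a difference of 0.42 (SE 0.13, limma adjusted p = 0.0912), which passed without columnar replicate 5 (limma adjusted p = 0.0457). Without the 2 arrays of highest CYP19A1 the difference on the brighter probe set was 0.51 (limma adjusted p = 0.109). Leaving out large replicate 2, 3 or 4 gave adjusted p-values of 0.0696, 0.0599 and 0.0732.

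ADAMTS1 was spread widely among large follicles. Its brighter probe set read 9.4, 7.7, 8.4 and 8.7, so that replicates 1 and 4 were higher than any small healthy follicle and replicate 2 was as low as the lowest. The difference was 0.45 (SE 0.22, limma adjusted p = 0.214). The dimmer probe set read 6.0, 4.4, 5.2 and 5.4, with a difference of 0.73 (SE 0.22, limma adjusted p = 0.0744). Leaving out either of 2 single follicles moved this result past the threshold. Without large replicate 2 the difference on the dimmer probe set was 1.01 (limma adjusted p = 0.0147), and without rounded replicate 1 it was 0.79 (limma adjusted p = 0.0384). Without large replicate 2 and columnar replicate 1, the arrays of highest CYP19A1, it was 0.98 (limma adjusted p = 0.0252). The brighter probe set then differed by 0.69 (limma adjusted p = 0.0767).

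MMP2 was 8.8, 9.1, 8.8 and 9.0 in large follicles, against 8.5, 8.6, 9.1, 8.6 and 8.2 in rounded and 8.2, 8.4, 8.5, 8.6 and 8.6 in columnar follicles. Every large follicle was above all small ones except rounded replicate 3, and the difference of 0.40 did not pass (SE 0.13, limma adjusted p = 0.106). Without rounded replicate 3 it was 0.46 and passed (limma adjusted p = 0.0307). The remaining members differed by less. MMP14 differed by -0.17 and -0.12 on its tested probe sets, the TIMP2 probe sets by -0.13, -0.24 and -0.29, and TIMP3 by -0.19, with adjusted p-values between 0.221 and 0.717. In large follicles PLAU read 5.0, 5.7, 5.0 and 5.1, PLAT 8.7, 8.3, 8.3 and 8.6, and PLAUR 4.1, 3.1, 2.7 and 3.3, all overlapping the small follicles. Their differences were 0.07, 0.07 and 0.23 (limma adjusted p = 0.929, 0.755 and 0.482). For 13 of the 14 probe sets the 95% interval of the difference lay within a 2-fold change in either direction, and for 6 within 1.5-fold, against 91.1% and 68.9% of all probe sets.

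Between small atretic and large healthy follicles no member passed. In limma 0 of 14 member probe sets and 0% of the 15326 probe sets had an adjusted p under 0.05, with 1 member and 18% of all probe sets at an unadjusted p under 0.05, and 0 members and 0 probe sets with an unmoderated linear model. The 95% interval lay within 2-fold for 11 member probe sets and within 1.5-fold for 2, against 88.6% and 64.7% of all probe sets. PLAU was the member with the low unadjusted p, at 4.58 ± 0.53 in atretic and 5.20 ± 0.34 in large follicles (SD, n = 5 and 4), a difference of -0.62 (SE 0.27, limma adjusted p = 0.263). Replicates 1, 2 and 3 of the atretic follicles were below all large ones. PLAUR differed by 0.74, with a 95% interval of -0.30 to 1.78 that left both no difference and a change of over 2-fold within it. TIMP1 was 9.16 ± 0.62 in atretic and 9.18 ± 0.10 in large follicles, and the difference of -0.01 had an interval of -0.63 to 0.60. The order of the group means was atretic, large and then small healthy for ADAMTS1 and PLAUR, and for neither did atretic and large follicles differ past the test.

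Between rounded and columnar small follicles, which differ in the shape of the basal granulosa cells, the members lay close together. In limma 0 of 14 passed the adjusted threshold and 0 an unadjusted p under 0.05, as did 0% and 2.31% of all 15570 probe sets, and an unmoderated linear model also gave 0. The differences ran from -0.10 for TIMP3 to 0.20 for the dimmer ADAMTS1 probe set, every adjusted p was 0.996, and the median size without sign was 0.09, against 0.08 over all probe sets. For 13 of 14 probe sets the 95% interval lay within a 2-fold change and for 10 within 1.5-fold, against 95.6% and 79.8% of all probe sets. The exception at 2-fold was PLAU, at 5.10 ± 1.04 in rounded and 5.16 ± 0.77 in columnar follicles (SD, n = 5 each), with an interval of -1.02 to 0.90. PLAU thus varied more among small healthy follicles than any other member: its range of 2.7 compares with 1.1 for the brightest TIMP2 probe set, the next widest.

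Whether members varied together from follicle to follicle was examined in the 10 small healthy follicles, which share 1 kit and size. Over the 36 pairs of genes, each read on its brightest probe set, no pair passed adjustment in a permutation test. MMP2 and PLAT came nearest, with Pearson's r = 0.75 (permutation p = 0.00412, adjusted p = 0.148) and Spearman's rho = 0.82 (permutation p = 0.0066, adjusted p = 0.238), and r was 0.70 without the 2 follicles farthest from the median. TIMP2 and TIMP3 ran in opposite directions with r = -0.59 (permutation p = 0.0774) and rho = -0.66 (permutation p = 0.0395, adjusted p = 0.461), and r was -0.43 without the 2 farthest follicles. The other 34 pairs had an unadjusted permutation p of at least 0.05 by both measures.

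For each member, the genes with the most similar pattern were sought among 7406 genes, from the deviations of the 19 follicles from their group means. These are descriptions over arrays that share a platform and a normalization. PLAU was nearest to LDHA, a lactate dehydrogenase subunit (r = 0.94), and to PLA2G15, a lysosomal phospholipase (r = 0.93), the highest values of any member. ADAMTS1 was nearest to C1S, a complement protease (r = 0.91), and TNXB, a tenascin of the matrix (r = 0.90). TIMP2, on the brightest probe set, which followed its others only loosely, was nearest to TF, transferrin (r = 0.89), and PRDX6, an antioxidant enzyme (r = 0.86). TIMP3 was nearest to ACTN4, an actin crosslinker (r = 0.89), and FMNL3, a formin (r = 0.83). PLAT followed TRIOBP (r = 0.89) and GIT2 (r = 0.85), and PLAUR followed FXYD5 (r = 0.85) and BCAP29 (r = 0.84). TIMP1 followed CTSH, the lysosomal protease cathepsin H (r = 0.85), and LOC514170 (r = 0.84), and MMP2 followed CCDC80, a matrix protein (r = 0.83), and ITGBL1 (r = 0.83). MMP14 had the weakest nearest genes, PLPP2 (r = 0.74) and COMMD8 (r = 0.71).

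The wider set of matrix-cutting enzymes and their partners was taken from 6 lists of 110 genes. Of these 54 were on the array under a single symbol and 33 passed the detection filter. Some of these reached the filter in only 1 of the groups compared and are left out of the counts, 5 in the atretic and 3 in the large comparison. All 14 member probe sets reached it in both. Between atretic and small healthy follicles 6 of the remaining 28 genes rose and 1 fell, or 25%, against 30.6% of all probe sets detected in both groups. Between large and small healthy follicles 2 of 30 rose and 0 fell, or 6.67%, against 3.23%. Both remaining comparisons gave 0 in limma.

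Among 6 other metalloproteinase inhibitors and cofactors detected in both groups, 4 rose in atretic follicles, against 16.7% of all probe sets detected in both, with a median difference of 0.57. In large follicles 1 of 6 rose, against 2.37%. A2M, the broad protease trap alpha-2-macroglobulin, read 10.3, 10.6, 8.9, 10.5 and 10.9 in atretic follicles, against 7.8 to 9.7 with a median of 8.65 in small healthy follicles, a difference of 1.60 (SE 0.29, limma adjusted p = 0.00239). All atretic follicles but replicate 3 were above every small healthy follicle. PCOLCE2, an enhancer of procollagen processing, read 6.3, 4.4, 4.8, 6.1 and 6.2, against 4.1 to 4.9, and rose by 1.10 (limma adjusted p = 0.00831). The rise fell short of 2-fold without atretic replicate 1, 4 or 5.

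SPOCK2, a testican proteoglycan, read 5.1, 2.7, 2.8, 4.4 and 3.2 in atretic follicles and 3.2, 2.5, 3.0 and 4.2 in large follicles, against 1.6 to 3.3 in small healthy follicles, of which only 1 of 10 was above 3. It reached the detection filter only through the atretic and the large follicles, so these values are given without a test. Both other genes of the list that rose in atretic follicles were singled out after their values were seen: TFPI2, an inhibitor of serine proteases, rose by 0.72, and TIMP4 by 0.42 in atretic follicles (limma adjusted p = 0.0311 and 0.048). Among atretic follicles both were highest in replicate 5, at 7.8 and 4.5, and their differences without it are not given.

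Of 9 other matrix metalloproteinases on the array, 3 were detected. MMP19 rose, at 5.5, 4.5, 3.7, 5.7 and 6.4 in atretic follicles, against 3.1 to 4.2 in small healthy follicles. The difference was 1.59 (SE 0.32, limma adjusted p = 0.0039), and again only atretic replicate 3 was inside the healthy range. In large follicles MMP19 read 3.6, 3.4, 3.5 and 4.5. MMP15 lay close to the limit, at 2.8 to 3.1 in atretic and 2.7 to 3.1 in large follicles, against 3.0 to 3.4 in small healthy follicles, and is given without a test. MMP9, the other gelatinase, singled out for its role after its values were seen, was at 2.0 to 2.5 on all 19 arrays and was not tested.

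Among 10 tested genes of plasminogen, serpins and plasmin receptors, 1 rose and 1 fell in atretic follicles. This was 20%, against 31.9% of all probe sets tested. The 10 include HPN, which reached the filter in only 1 of the groups compared and did not pass. SERPINB6, an intracellular serpin, rose by 0.44 (limma adjusted p = 0.0102), at 8.2 to 8.4 in atretic and 7.5 to 8.2 in small healthy follicles. S100A10, the partner of annexin A2 in binding plasminogen at the cell surface and named after its values were seen, fell by 0.52 (limma adjusted p = 0.0446). CLEC3B, tetranectin, differed by 0.15 in atretic and 0.33 in large follicles without passing. SERPINE2, an inhibitor of plasminogen activators and likewise named afterwards, differed by 0.25 in atretic and 0.20 in large follicles (limma adjusted p = 0.366 and 0.621). Of the 24 other ADAMTS and ADAMTS-like genes listed, 6 were on the array under a single symbol. Only ADAMTS4 and ADAMTSL2 were tested, and neither passed. ADAMTSL4, which the study reported as higher in large follicles, was not among the genes tested here. HTRA1 did not pass, nor did any other pericellular serine protease tested. FAP read 2.7 to 3.5 in atretic follicles, against 2.7 to 4.5 in small healthy follicles.

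ANPEP, a membrane aminopeptidase, was higher in every large follicle than in any small healthy one. It read 4.9, 4.9, 5.0 and 5.2 in large follicles, against 3.4 to 4.5 in small healthy follicles, a difference of 1.04 (SE 0.17, limma adjusted p = 0.00562). In atretic follicles it read 3.1, 3.3, 4.4, 3.6 and 4.1. The difference was 0.99, 0.98 and 0.97, just under 2-fold, without rounded replicate 5, columnar replicate 5 or large replicate 4. PCOLCE, the other procollagen enhancer and singled out after its values were seen, was 8.3, 8.6, 8.1 and 7.8 in large follicles, against 6.9 to 8.0 in small healthy follicles, and rose by 0.77 (limma adjusted p = 0.0454). Its highest value came from large replicate 2, the follicle with the highest CYP19A1, and the difference without that follicle is not given. ADAM12, a membrane sheddase, read 2.3 to 3.1 in atretic follicles, of which 1 of 5 was above 3, against 2.7 to 3.8 in small healthy follicles, and is given without a test.

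**Figure D4:**
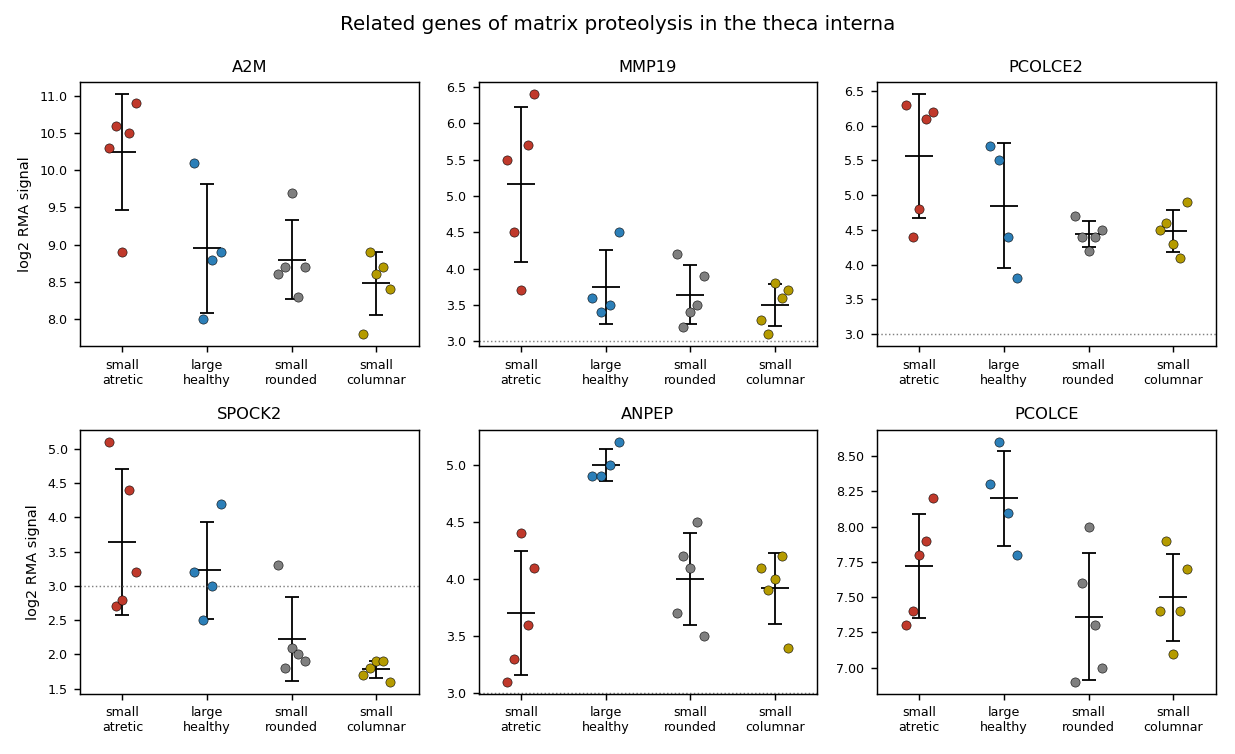
Log2 RMA signal of 6 related genes (vertical axes, different ranges) in small atretic, large healthy, small rounded and small columnar follicles; points are follicles, bars are means with SD, and the dotted line marks the detection limit of 3. A2M and MMP19 were higher in atretic follicles, ANPEP in large follicles, and the small healthy follicles lay at 3.4 to 4.5 for ANPEP.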

How the data were processed

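The authors summarised the arrays by RMA with quantile normalization, in Partek 6.5 per the submitters' processing notes, and deposited log2 signals per probe set with 1 decimal. The sources used here do not say if 1 normalization covered all arrays. Of 24127 probe sets, 13317 had 1 gene symbol, 86 several and 10724 none, and 111 array controls were left out of the tests.

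Groups came from the sample records. Comparisons used lmFit and eBayes in limma 3.58.1 (R 4.3.3). P-values were adjusted by Benjamini-Hochberg over every probe set that exceeded a log2 signal of 3 in 50% or more of the follicles of a type, with a threshold of 0.05. The unmoderated linear model was the same fit without eBayes. Rounded and columnar follicles were compared within a fit of all 14 healthy arrays. Pairwise correlations used 100000 permutations. The fits were tested on simulated data.

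Members, lists and tests were chosen with earlier results of these data known. Named were all members, from the wider lists each gene past both limits and, where a list had fewer than 2 such genes, the 2 with the smallest unadjusted p, and the 2 nearest genes of each member. The brightest probe set stood for a gene. Alternatives covered the spread, filter, normalization, replicate numbers as a block, each type of small follicle alone and leaving out arrays.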

Additional observations from a re-analysis of the deposited data

Results flagged for a closer look

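Among 60 sets of 1 probe set in 1 follicle group, 5 had a highest or lowest follicle that was flagged by Dixon's criterion for outliers. Its nominal rate of about 1 in 20 sets was not checked for signals with 1 decimal, where ties can decide the outcome. The 2 TIMP1 probe sets also vary together and are not separate cases. For TIMP1, rounded replicate 5 was the highest of its group on both probe sets, at 8.9 on the brighter and 9.0 on the dimmer. For PLAU, large replicate 2, the follicle with the highest CYP19A1, was the highest at 5.7. For MMP14 on its brightest probe set, atretic replicate 4 was the highest of its group at 3.8. Columnar replicate 4 was the lowest of its group at 3.3, where the other columnar follicles all read 3.4, the smallest step that 1 decimal allows.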

How the results depend on the processing

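Counts of probe sets between large and small healthy follicles depended on the fit. The 110 probe sets past both limits were 54 with an unmoderated linear model, 59 without the 2 arrays of highest CYP19A1, 12 against rounded follicles alone, 557 with no fold limit, and 54 to 162 when single follicles were left out. The 557 past the adjusted p alone were 339, 159 and 18 in the first 3 of these settings, 258 against columnar follicles alone, and 154 to 982 when single follicles were left out, lowest without large replicate 4. Of the member probe sets, 1 passed with no fold limit, 0 in 1 fit of all 19 arrays or against rounded or columnar follicles alone, and 0 to 2 without single follicles, while 0 to 1 also reached 2-fold.

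Between atretic and small healthy follicles, the 569 probe sets past both limits were 151 against rounded follicles alone, 4939 with no fold limit, and 444 to 706 without single follicles. The 4939 past the adjusted p alone were 244 against rounded follicles alone and 2978 to 5690 without single follicles. Of the member probe sets 6 passed with no fold limit, 0 against rounded follicles alone and 4 to 8 without single follicles. At 2-fold as well, 1 passed against columnar follicles alone and 0 to 3 without single follicles. Against columnar follicles alone, the number of all probe sets past both limits stayed within 1.5-fold of 569. Between atretic and large follicles, 43 probe sets passed both limits and 123 the adjusted p in 1 fit of all 19 arrays, and 0 to 92 and 0 to 125 without single follicles, highest for both limits without large replicate 4. Some settings leave fewer follicles, and the cause of these shifts was not tested.

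Same-numbered follicles did not deviate together throughout: over 27 pairs of same-numbered follicles the correlation of deviations ran from -0.343 to 0.569, with 10 above 0.1. Follicles with different numbers were not compared in this way, so whether some same-numbered follicles belong together was not tested. With the replicate number as a block, 2 member probe sets, both of TIMP1, and 341 of all probe sets passed the adjusted p between large and small follicles. Between atretic and small follicles 8 member probe sets, which include several of 1 gene, and 4777 of all probe sets passed it. The dimmer TIMP1 probe set differed by -0.075 between atretic and large follicles.

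Signs turned only for differences that had not passed the test. Without the 2 arrays of highest CYP19A1, PLAU differed by -0.0889 between large and small follicles, the brighter TIMP1 probe set by 0.0267, the brightest TIMP2 probe set by -0.0133 and the dimmer ADAMTS1 probe set by -0.0933 between atretic and large follicles, and the middle TIMP2 probe set by -0.015 between rounded and columnar follicles. That TIMP1 probe set differed by 0.0371 when quantile normalization was repeated, and the brightest MMP14 probe set by 0.02 between atretic and rounded follicles. When single follicles were left out, differences between large and small follicles ran from -0.10 to 0.24 for PLAU, -0.01 to 0.12 for PLAT and -0.0367 to 0.43 for PLAUR. Between atretic and small follicles they ran from -0.005 to 0.17 for MMP2, -0.14 to 0.035 for the brightest MMP14 probe set and -0.305 to 0.12 for the brightest TIMP2 probe set. Between atretic and large follicles they ran from -0.175 to 0.15 for the brighter TIMP1 probe set, -0.125 to 0.175 for the dimmer TIMP1 probe set, -0.175 to 0.25 for the brightest TIMP2 probe set and -0.0933 to 0.44 for the dimmer ADAMTS1 probe set. Between rounded and columnar follicles they ran from -0.145 to 0.005 for the dimmer tested MMP14 probe set, -0.10 to 0.10 for the brighter TIMP1 probe set, -0.075 to 0.21, -0.02 to 0.11 and -0.135 to 0.045 for the TIMP2 probe sets from bright to dim, and -0.46 to 0.215 for PLAU.

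Over all single differences under all alternatives, 1269 kept their sign and side of the threshold, 57 lost and 13 gained the call, and 53 changed sign. Of the genes of the wider lists, 2 passed both limits between large and small follicles, and 1 did when only genes detected in both groups were counted, a choice made after seeing the data. Leaving out the 2 farthest follicles gave r for each pair of members and no p, so it gave no count of pairs. The small number of follicles, 1 decimal in the deposited signals, and signals near 3 for MMP14 and PLAUR limit what these arrays can resolve.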
